A study of Drosophila melanogaster with 12 samples.

Results

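The 8 Hox genes of *Drosophila melanogaster* were followed through input RNA and m6A-immunoprecipitated RNA (meRIP) of larval brain lobes. They are *lab* (FBgn0002522), *pb* (FBgn0051481), *Dfd* (FBgn0000439), *Scr* (FBgn0003339), *Antp* (FBgn0260642), *Ubx* (FBgn0003944), *abd-A* (FBgn0000014) and *Abd-B* (FBgn0000015). They were chosen by name, as the members of 1 gene family, out of 17807 genes in the count table. The libraries came from larvae of the L3 stage of 3 genotypes. Neuroblast-biased brains carried *insc-Gal4* and *UAS-aPKC-CAAX*, a membrane-targeted atypical protein kinase C expressed in neuroblasts (the stem cells that produce neurons and glia). *Mettl3* null brains came from larvae labelled null for the gene of the methyltransferase that places m6A on mRNA. Which part of the gene the allele removes is not given in the sources used here. Wildtype brains (Oregon-R) were the neuron-biased source. Each genotype had 2 input and 2 meRIP libraries, 12 in all. The genotypes were separate strains, so that a difference in strain background cannot be told apart from the named genetic change.

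Hox genes encode homeodomain transcription factors that give each segment of the body its identity. In the nervous system their domains follow the order of the genes on the chromosome broadly, though not gene by gene: *lab*, *pb*, *Dfd* and *Scr* act in head segments and the parts of the brain derived from them, *Antp* and *Ubx* in the thorax, and *abd-A* and *Abd-B* in the abdomen. In the ventral nerve cord the posterior Hox genes set how long a neuroblast divides and can trigger its death. The anterior brain lies in front of most Hox domains. The mark m6A is a methyl group placed on adenosines of mRNA, and anti-m6A meRIP enriches for transcripts that carry it.

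All 8 genes lie on chromosome arm 3R in 2 clusters (coordinates of BDGP6.54). The Antennapedia complex holds *lab* (6661427 to 6678590), *pb* (6707800 to 6742063), *Dfd* (6791836 to 6802428), *Scr* (6823120 to 6849981) and *Antp* (6896253 to 6999228). The bithorax complex holds *Ubx* (16656623 to 16734426), *abd-A* (16807214 to 16830049) and *Abd-B* (16927212 to 16972236). Only *Dfd* is on the plus strand. Their exons sum to between 2739 bases for *Dfd* and 11791 bases for *Abd-B*.

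The annotated 5′ untranslated regions (UTRs) of the members were searched for AAAC followed by any base but T, a motif linked to m6A in flies. Only the sequence as it reads in the transcript was searched. Every member had matches. Windows are shown because the meRIP results below concern these transcripts. Only matches with 10 bases of the same 5′ UTR stretch on each side were considered for this. For each member the 25-base window around the one nearest the most downstream start codon is given, with the match in capitals. It lies at chr3R:6678437-6678461 in *lab*, chr3R:6741260-6741284 in *pb*, chr3R:6847949-6847973 in *Scr*, chr3R:6910398-6910422 in *Antp*, chr3R:16733540-16733564 in *Ubx*, chr3R:16828039-16828063 in *abd-A* and chr3R:16933190-16933214 in *Abd-B*, all on the minus strand, and at chr3R:6792275-6792299 on the plus strand in *Dfd*.
lab: cttagaaagcAAACAgctaaagaac
pb: acaatagtgaAAACGgtgacccaag
Dfd: ataaccaggaAAACGcatccggtga
Scr: gaaaatcagaAAACAaactcacttg
Antp: aaggatcaaaAAACAccaaggagac
Ubx: agatccctggAAACCaattcgtgtg
abd-A: caagtggactAAACGaaattccgaa
Abd-B: cccctcccccAAACCccaaccatcc
*Ubx* held 17 matches in 963 bases of 5′ UTR, or 17.6 per kb, against a median of 6.29 per kb over the 9835 tested genes with an annotated 5′ UTR. Of 744 genes whose 5′ UTR was within 1.25-fold of that length, 1.48% had at least as many. *Antp* held 22 matches in 3278 bases (6.71 per kb), and 59.1% of 66 genes of similar 5′ UTR length had at least as many. *pb* and *Dfd* had 10.3 and 10.2 matches per kb, *lab* 7.31, *Abd-B* 7.002, *abd-A* 5.25 and *Scr* 4.71. Of all these genes, 65.1% had at least 1 match, and in the length class of each member 93.9% to 100% did. A match is a description of these letters and not a mapped m6A site.

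Library totals ran from 4220420 to 31352131 counts, with at most 10828815 in an input library and at least 7870449 in a meRIP library. Values are given as CPM (counts relative to library size, in the usual CPM unit) scaled with TMM (trimmed mean of M-values) factors on 1 scale for all 12 libraries. *Mettl3* had 9.05 and 2.25 CPM in *Mettl3* null input, against 22.9 and 22.6 CPM in wildtype input, which limma-voom did not call (adjusted p = 0.784), whereas its meRIP counts were called lower (log2 fold change, log2FC, -1.97, SE 0.39, adjusted p = 0.000343). What the 121 and 30 counts left in *Mettl3* null input mean cannot be told without the extent of the deletion. *aPKC* had 424 and 343 CPM in the neuroblast-biased libraries, against 116 and 130 CPM in the wildtype ones (log2FC 1.63, SE 0.19, adjusted p = 5.17e-05), with transgene and endogenous transcripts not separated. Against wildtype input, all 7 neuroblast markers examined were called higher and 6 of 7 neuron markers lower in the neuroblast-biased libraries. Marker lists of some other tissues varied with genotype in input and others did not: 7 salivary gland genes, all 7 at 0 in both neuroblast-biased libraries, summed to between 10.2 and 17.1 CPM in *Mettl3* null libraries and between 211 and 214 CPM in wildtype libraries. The 4 ring gland genes in the table summed to between 6.72 and 11.2 CPM in neuroblast-biased, 16.3 and 21.5 CPM in *Mettl3* null and 64.5 and 83.5 CPM in wildtype input. Fat body markers summed to between 253 and 337 CPM in neuroblast-biased, 450 and 597 CPM in *Mettl3* null and 809 and 820 CPM in wildtype input, whereas haemocyte and muscle markers overlapped between neuroblast-biased and wildtype libraries. All 8 Hox genes passed the filter on low counts in every fit.

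*Antp* was the most abundant Hox transcript of the brain lobes in each genotype. Per kb of exon, *Antp* averaged 12.3 ± 0.834 CPM in neuroblast-biased, 11.2 ± 0.0701 CPM in *Mettl3* null and 9.08 ± 1.19 CPM in wildtype libraries of input RNA (SD over the 2 libraries of each). In wildtype input the order after *Antp* was *Scr* (4.47 ± 1.34 CPM per kb), *Ubx* (3.10 ± 0.556), *pb* (2.34 ± 1.64), *abd-A* (1.63 ± 0.527), *Dfd* (0.498 ± 0.704), *lab* (0.291 ± 0.323) and *Abd-B* (0.0885 ± 0.0331). The libraries of neighbours in this order overlapped for *Ubx* and *pb*, for *pb* and *abd-A*, and for the last 3 genes, so those ranks are not resolved. Compared with all genes above 0 counts in wildtype input, *Antp* exceeded 48.7% of them per length and *Scr* exceeded 33.0%, while *lab* and *Abd-B* exceeded 6.15% and 1.76%. The labelled tissue is brain lobe, and transcripts of both the thoracic and abdominal Hox genes were in it, together with the trunk selector *tsh* at 103 and 72.6 CPM in neuroblast-biased, 124 and 96.9 CPM in *Mettl3* null and 117 and 81.8 CPM in wildtype input. Input counts of *lab* were at most 31 in any library, and of *Abd-B* at most 37.

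**Figure D1:**
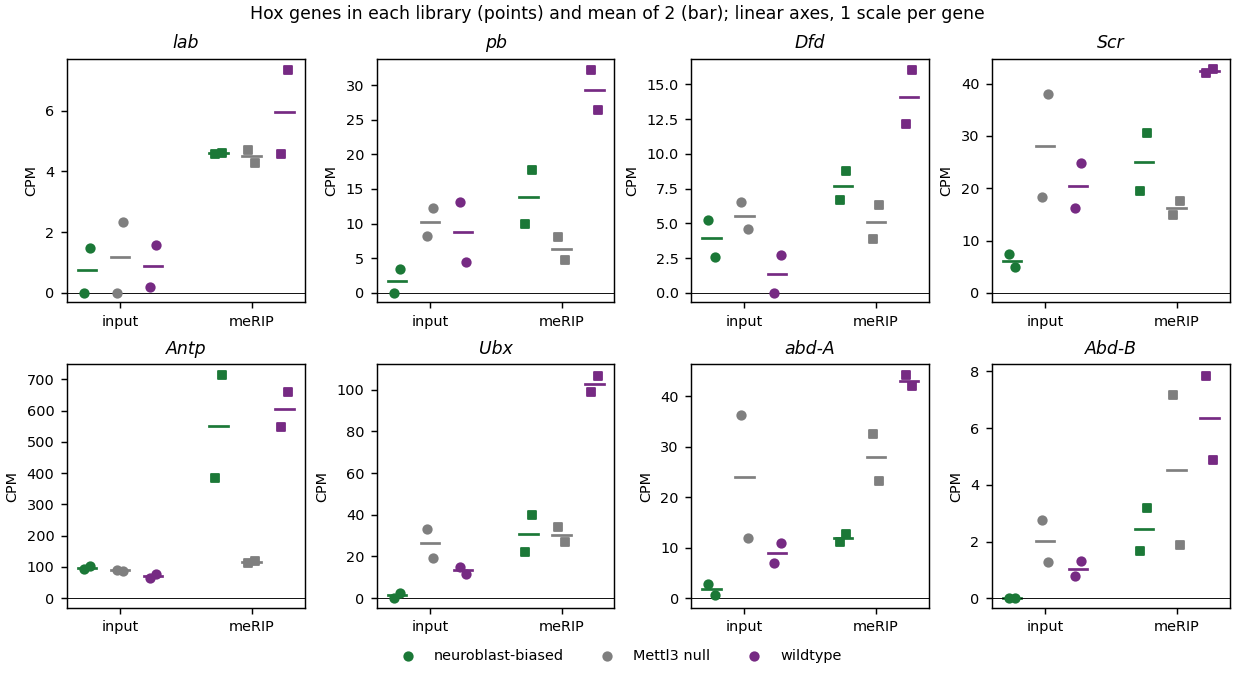
CPM (linear axes, 1 scale per gene) of the 8 Hox genes in neuroblast-biased, Mettl3 null and wildtype libraries, with input as circles, meRIP as squares and the mean of 2 libraries as a bar. In input, Ubx lay at 0.13 and 2.58 CPM in neuroblast-biased brains against 14.98 and 11.6 CPM in wildtype brains, and Antp meRIP lay at 113 and 118 CPM in Mettl3 null brains against 549 and 660 CPM in wildtype brains.

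In input RNA the 3 bithorax complex transcripts had their lowest values in neuroblast-biased brains. *Ubx*, which specifies the third thoracic and first abdominal segment, had 0.13 and 2.58 CPM in neuroblast-biased libraries, 33.1 and 19.4 CPM in *Mettl3* null libraries and 14.98 and 11.6 CPM in wildtype libraries. *abd-A*, an abdominal gene that triggers the death of ventral cord neuroblasts, had 2.90 and 0.65 CPM in neuroblast-biased, 36.2 and 11.9 CPM in *Mettl3* null and 6.91 and 11 CPM in wildtype input. For both genes each neuroblast-biased library lay below every library of the other genotypes, and the same held for *Abd-B*, *pb* and *Scr*. How many of all genes separated in this way was not counted. *Abd-B*, the most posterior gene of the family, had 0 counts in both neuroblast-biased libraries, 37 and 17 counts in *Mettl3* null libraries and 4 and 15 counts in wildtype libraries. With the floor of 3 counts per library (0.395 and 0.277 CPM), *Abd-B* was at least 6.03-fold lower in neuroblast-biased input than in that of *Mettl3* null brains and at least 3.11-fold lower than in that of wildtype brains, for counting error only. Without replicate 1 of *Mettl3* null input the first of these bounds was 3.805-fold, and without replicate 2 of wildtype input the second was 2.288-fold. Genes with a count numbered 7891 and 9041 in neuroblast-biased, 9240 and 8739 in *Mettl3* null and 9450 and 9739 in wildtype input. In neuroblast-biased input *lab* had 0 and 16 counts and *pb* 0 and 38, so a 0 in 1 library there need not mean absence. Other lists were lower in neuroblast-biased input too. Besides 6 of 7 neuron markers, 4 of 6 glia markers (*repo*, *moody*, *alrm* and *Gs2*) and 1 of 7 fat body markers (*apolpp*) were called lower than in wildtype input. The glia markers *Eaat1* (log2FC 0.53, adjusted p = 0.1025) and *nrv2* (-0.03, adjusted p = 0.948) were not called, with *Eaat1* on the higher side. All 7 salivary gland markers and 1 of 5 tested imaginal disc markers were called lower too. No ring gland, muscle or haemocyte marker was called. Imaginal disc markers summed to between 110 and 141 CPM in neuroblast-biased, 179 and 244 CPM in *Mettl3* null and 196 and 244 CPM in wildtype input. The trunk selectors *tsh* and *tio* were listed as markers of the ventral nerve cord, and whether they are confined to it was not tested. They summed to between 98.6 and 134 CPM in neuroblast-biased, 133 and 187 CPM in *Mettl3* null and 135 and 175 CPM in wildtype input, and neither was called. The part of these cells in the bithorax complex values was not tested. Fewer cells that express a gene and less RNA per cell cannot be told apart in these bulk libraries.

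None of these differences passed the test of limma-voom. Between neuroblast-biased and wildtype input 0 of 8 Hox genes were called in either direction, beside 5.28% of the 9423 tested genes called higher and 8.09% called lower, and 0 of 8 had an unadjusted p under 0.05. The edgeR quasi-likelihood test also called 0, and DESeq2 called 4 (*Scr*, *Ubx* and *abd-A* lower, *Antp* higher). *Ubx* had a log2FC of -3.93 with a 95% interval from -8.01 to 0.15 (adjusted p = 0.203), and *abd-A* one of -2.82 (-7.06 to 1.42, adjusted p = 0.384). Between neuroblast-biased and *Mettl3* null input the count was again 0 of 8, beside 7.90% of genes called higher and 9.26% lower, with an unadjusted p under 0.05 for *Scr* and *Ubx*. The log2FC of *Ubx* there was -4.94 (-8.91 to -0.98, adjusted p = 0.0823), and it was called by edgeR (adjusted p = 0.0463) and DESeq2 (adjusted p = 8.81e-05) within a range of 8.81e-05 to 0.278 over its 13 alternatives. Replicates were far apart for these genes: the neuroblast-biased *Ubx* counts were 1 and 28.

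*Antp* made up most of the Hox counts of neuroblast-biased input. *Antp*, the gene of the second thoracic segment, had 93.4 and 103 CPM in neuroblast-biased libraries, 89.0 and 88.3 CPM in *Mettl3* null libraries and 65.5 and 78.8 CPM in wildtype libraries. Each neuroblast-biased library was above each wildtype library, with a log2FC of 0.45 (95% interval -0.09 to 0.99, adjusted p = 0.269). Of all counts of the 8 Hox genes, *Antp* took 85.6% (Wilson 95% interval 83.1% to 87.9%) and 86.7% (84.7% to 88.4%) in neuroblast-biased input, 45.9% and 49.6% in *Mettl3* null input and 55.7% and 57.8% in wildtype input. The bithorax complex genes *Ubx*, *abd-A* and *Abd-B* together took 2.78% and 2.72% in neuroblast-biased, 37.2% and 18.3% in *Mettl3* null and 19.3% and 17.6% in wildtype input. These intervals cover counting error only. The genotypes did not overlap in the share of *Antp*, and with 2 libraries against 2 an exact permutation test cannot give a two-sided p below 0.333. In the Ensembl annotation, 50.1% of the exon sequence of *Antp* is shared on the same strand with the gene model *CG46458*, which is not a row of the table. How reads in that stretch were counted is not given in the sources used here.

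**Figure D2:**
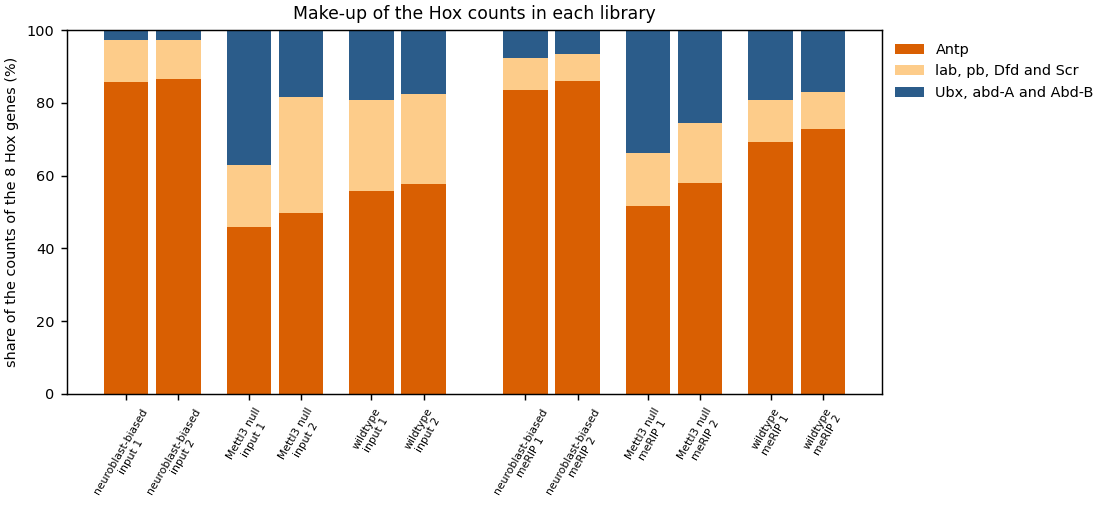
Share (%) of the counts of the 8 Hox genes taken by Antp, by lab, pb, Dfd and Scr, and by Ubx, abd-A and Abd-B, as stacked bars for each of the 12 libraries. The bithorax complex genes take 2.72% to 2.78% of neuroblast-biased input and 17.6% to 19.3% of wildtype input.

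The anterior genes were low and variable in input. *Scr*, which specifies the labial and first thoracic segment and the embryonic salivary gland, had 7.37 and 4.98 CPM in neuroblast-biased, 18.3 and 38.0 CPM in *Mettl3* null and 16.1 and 24.8 CPM in wildtype input. Its neuroblast-biased libraries lay below all others, with a log2FC of -1.87 against wildtype (95% interval -3.99 to 0.24, adjusted p = 0.240). The salivary gland markers, at 0 CPM in neuroblast-biased input, moved the same way, and their part in the *Scr* value was not tested. *Scr* averaged 28.1 CPM in *Mettl3* null and 20.5 CPM in wildtype input, while those markers summed to at most 17.1 CPM in *Mettl3* null and at least 211 CPM in wildtype input. *pb*, a gene of the adult mouthparts, had 0 and 3.50 CPM in neuroblast-biased, 8.16 and 12.2 CPM in *Mettl3* null and 13.1 and 4.40 CPM in wildtype input. *Dfd*, of the mandibular and maxillary segments, had 5.27 and 2.58 CPM in neuroblast-biased, 6.51 and 4.59 CPM in *Mettl3* null and 0 and 2.73 CPM in wildtype input. *lab*, which acts in the tritocerebrum of the brain, did not exceed 2.33 CPM in any input library.

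Loss of *Mettl3* did not move the Hox transcripts detectably in input. Compared with wildtype input, 0 of 8 were called by limma-voom, by edgeR or by DESeq2, beside 0.117% of genes called higher and 0.138% called lower, and 0 of 8 had an unadjusted p under 0.05. *Dfd*, *Antp*, *Ubx* and *abd-A* lay higher in both *Mettl3* null libraries than in either wildtype library, and the libraries of *lab*, *pb*, *Scr* and *Abd-B* overlapped. The share of all genes that separated in this way was not counted. The log2FC was 1.01 for *Ubx* (95% interval -0.27 to 2.29, adjusted p = 0.832) and 1.05 for *abd-A* (-0.83 to 2.93, adjusted p = 0.893). For *Dfd* it was 3.03 (-1.30 to 7.36, adjusted p = 0.859). For *Antp* the interval was narrow, at a log2FC of 0.23 (-0.28 to 0.75, adjusted p = 0.915).

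In meRIP RNA most Hox transcripts were lower in *Mettl3* null brains. Compared with wildtype meRIP, 6 of 8 were called lower in *Mettl3* null meRIP and 0 higher, beside 16.6% of the 9493 tested genes called lower and 6.11% higher, and the median log2FC of the 8 was -1.58, against 0.05 over all genes tested. *Antp* had 113 and 118 CPM in *Mettl3* null libraries, against 549 and 660 CPM in wildtype libraries (log2FC -2.45, SE 0.24, adjusted p = 1.26e-08). *Ubx* had 34.2 and 26.8 CPM in *Mettl3* null libraries, against 99.0 and 107 CPM in wildtype libraries (log2FC -1.80, SE 0.25, adjusted p = 2.92e-06). *pb* had 8.001 and 4.78 CPM in *Mettl3* null and 32.1 and 26.3 CPM in wildtype libraries (log2FC -2.19, SE 0.36, adjusted p = 2.84e-05). In these 3 genes every *Mettl3* null library lay below every wildtype library, and the same held for *Dfd*, *Scr* and *abd-A*. How many of all genes separated in this way was not counted. *Scr*, at 14.9 and 17.6 CPM in *Mettl3* null and 42.0 and 42.8 CPM in wildtype libraries, fell by 1.49 on the log2 scale (SE 0.27, adjusted p = 0.000131), with the salivary gland markers summing to between 25.1 and 42.4 CPM in *Mettl3* null and between 570 and 650 CPM in wildtype meRIP. Their part in the *Scr* value was not tested. *Dfd* had 3.88 and 6.29 CPM in *Mettl3* null and 12.2 and 16.0 CPM in wildtype libraries (log2FC -1.67, adjusted p = 0.00173), and it was not called without replicate 1 of *Mettl3* null meRIP (log2FC -1.07, adjusted p = 0.219, in a range of 0.000561 to 0.219 over its 13 alternatives).

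Within the bithorax complex, *abd-A* and *Abd-B* had smaller log2FC values than *Ubx* in this meRIP comparison, and that difference was not tested. *abd-A* had 32.6 and 23.1 CPM in *Mettl3* null meRIP, against 44.1 and 42.1 CPM in wildtype meRIP (log2FC -0.67, SE 0.24, adjusted p = 0.0434). This call was lost under 8 of 13 alternatives, among them without replicate 1 or 2 of *Mettl3* null (adjusted p = 0.103 and 0.416) and without replicate 1 or 2 of wildtype meRIP (0.276 and 0.177), within a range of 0.0199 to 0.793. *Abd-B* was not called, at 7.18 and 1.89 CPM in *Mettl3* null and 7.85 and 4.89 CPM in wildtype meRIP, and *lab* was not called at 4.71 and 4.28 CPM in *Mettl3* null and 4.56 and 7.33 CPM in wildtype meRIP (adjusted p = 0.516 and 0.592). Scaling by library size alone shifted the median of all genes by 0.58 in this comparison and turned the balance of calls over all genes to 2962 higher and 896 lower, against 580 higher and 1576 lower with TMM. Under that scaling *pb*, *Dfd*, *Scr*, *Antp* and *Ubx* were still called lower.

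Compared with brains null for *Mettl3*, neuroblast-biased brains had more *Antp* in meRIP, whereas *Ubx* was not called. Relative to *Mettl3* null meRIP, 3 of 8 Hox genes were called higher in neuroblast-biased meRIP and 1 lower, beside 20.6% of genes called higher and 18.2% lower, shares to which these counts are close. *Antp* had 383 and 715 CPM in neuroblast-biased meRIP, against 113 and 118 CPM without *Mettl3* (log2FC 2.26, SE 0.24, adjusted p = 4.01e-08). *Ubx* had 22.2 and 39.7 CPM in neuroblast-biased meRIP, against 34.2 and 26.8 CPM in *Mettl3* null meRIP, with a log2FC of 0.01 and a 95% interval from -0.52 to 0.53. *abd-A* was lower, at 11.1 and 12.6 CPM in neuroblast-biased and 32.6 and 23.1 CPM without *Mettl3* (log2FC -1.19, SE 0.26, adjusted p = 0.000625). The calls of *Antp* and *abd-A* held under all 13 alternatives. *pb* (log2FC 1.04, SE 0.36, adjusted p = 0.0252) lost its call without replicate 2 of neuroblast-biased meRIP (log2FC 0.69, adjusted p = 0.168) and without replicate 1 or 2 of *Mettl3* null meRIP (0.0813 and 0.196), in a range of 0.00214 to 0.293. *Scr* (log2FC 0.69, SE 0.27, adjusted p = 0.0472) lost its call under 10 of 13 alternatives, including every omission of 1 library except replicate 1 of neuroblast-biased meRIP, in a range of 0.00808 to 0.740.

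Set against wildtype meRIP, neuroblast-biased meRIP had less of every Hox transcript but *Antp* and *lab* by the test. There were 6 of 8 called lower and 0 higher, beside 23.8% of genes called lower and 19.7% higher. *Ubx* had 22.2 and 39.7 CPM in neuroblast-biased libraries, against 99.0 and 107 CPM in wildtype libraries (log2FC -1.79, SE 0.24, adjusted p = 5.74e-07). *abd-A* had 11.1 and 12.6 CPM in neuroblast-biased and 44.1 and 42.1 CPM in wildtype libraries (log2FC -1.86, SE 0.25, adjusted p = 6.64e-07), and both calls held under all 13 alternatives. *Abd-B* had 1.67 and 3.19 CPM in neuroblast-biased and 7.85 and 4.89 CPM in wildtype libraries (log2FC -1.49, SE 0.49, adjusted p = 0.0142). It was not called without replicate 1 of neuroblast-biased (log2FC -1.01, adjusted p = 0.150) or of wildtype meRIP (-1.08, adjusted p = 0.181), in a range of 0.00254 to 0.181. The anterior genes *pb* (log2FC -1.15, SE 0.27), *Dfd* (-0.85, SE 0.31) and *Scr* (-0.80, SE 0.24) were lower by less, with adjusted p of 0.00113, 0.0256 and 0.00799.

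Without replicate 1 of neuroblast-biased meRIP, all 3 anterior calls were lost (adjusted p = 0.0562 for *pb*, 0.166 for *Dfd* and 0.174 for *Scr*), and 2 Hox genes stayed called in that comparison. *Dfd* was also not called without replicate 2 of wildtype meRIP (adjusted p = 0.223), with DESeq2 (0.0569), with library size alone (0.0639) or with no filter (0.0556), nor was *Scr* without replicate 1 or 2 of wildtype meRIP (0.0531 and 0.0663). The adjusted p ranged from 0.000153 to 0.0562 for *pb*, from 0.0151 to 0.223 for *Dfd* and from 0.00167 to 0.174 for *Scr* over 13 alternatives each. *Antp* did not differ detectably, at 383 and 715 CPM in neuroblast-biased and 549 and 660 CPM in wildtype meRIP, with a log2FC of -0.19 and a 95% interval from -0.71 to 0.32. Its neuroblast-biased libraries lay on either side of the wildtype pair: the log2FC was -0.62 without replicate 2 of neuroblast-biased meRIP (adjusted p = 0.0419) and 0.23 without replicate 1 (adjusted p = 0.521), within a range of 0.0419 to 0.943.

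**Figure D3:**
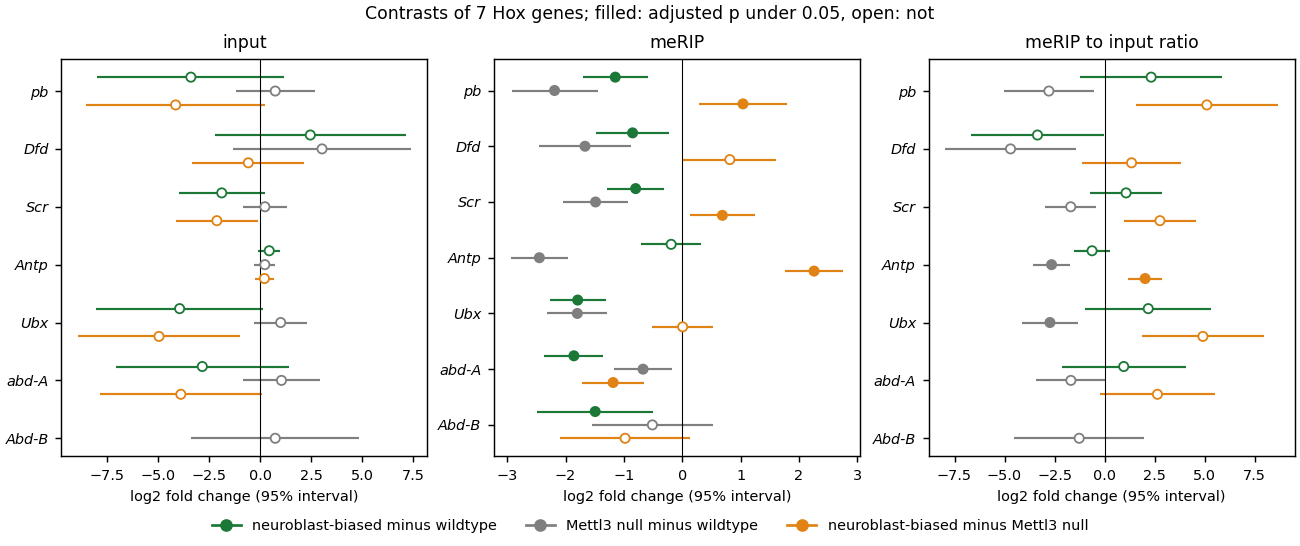
log2 fold changes with 95% intervals of 7 Hox genes (lab is left out) for neuroblast-biased minus wildtype, Mettl3 null minus wildtype and neuroblast-biased minus Mettl3 null, in input, meRIP and their ratio, with filled points for an adjusted p under 0.05. Contrasts of Abd-B that use neuroblast-biased input, where it had 0 counts, are not drawn. In meRIP, Antp stands at -2.45 for Mettl3 null minus wildtype and at 2.26 for neuroblast-biased minus Mettl3 null, whereas Ubx stands at -1.80 and 0.01.

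The ratio of meRIP to input sets the recovered RNA against the amount of transcript. Between *Mettl3* null and wildtype brains it was called lower for 2 of 8 Hox genes and higher for 0, beside 5.22% of 9918 genes called lower and 0.413% higher. *Antp* had a ratio of mean CPM of 1.30 in *Mettl3* null and 8.37 in wildtype brains (log2FC of the ratio -2.65, SE 0.43, adjusted p = 0.00261), where the median over all genes was 0.980 and 0.899. In wildtype brains 98.8% of genes had a lower ratio than *Antp*. *Ubx* had a ratio of 1.16 in *Mettl3* null and 7.74 in wildtype brains (log2FC -2.73, SE 0.65, adjusted p = 0.0206). *Antp* lost its call in 1 of 20 alternatives, without replicate 2 of wildtype input (log2FC -2.82, adjusted p = 0.0700, in a range of 7.65e-11 to 0.0700). *Ubx* lost its call in 8 of 20, among them without replicate 1 or 2 of wildtype input (adjusted p = 0.122 and 0.357), replicate 1 of *Mettl3* null input (0.0832), replicate 1 or 2 of *Mettl3* null meRIP (0.109 and 0.0634) or replicate 1 or 2 of wildtype meRIP (0.0618 and 0.0606), within a range of 0.00185 to 0.357. For *pb*, *Dfd* and *Scr* the log2FC of the ratio was -2.78, -4.70 and -1.69 with unadjusted p under 0.05 and adjusted p of 0.163, 0.0960 and 0.134. *Dfd* rests on 31 wildtype input counts in all, of which replicate 1 had 0.

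Between neuroblast-biased and *Mettl3* null brains the ratio was called higher for 1 of 8 Hox genes and lower for 0, beside 4.46% of genes called higher and 0.242% lower. That gene was *Antp*, with a ratio of 5.60 in neuroblast-biased brains, against 1.30 in those null for *Mettl3* (log2FC 2.02, SE 0.41, adjusted p = 0.0108). The call was lost without replicate 1 of *Mettl3* null meRIP (log2FC 1.99, adjusted p = 0.109) and with the compared genotypes fitted alone (0.0521), within a range of 5.26e-06 to 0.109 over 20 alternatives. *Ubx* had a ratio of 22.8 in neuroblast-biased brains and 1.16 in *Mettl3* null brains, with a log2FC of 4.91 (95% interval 1.85 to 7.98, adjusted p = 0.0648). The numerator of that value rests on 1381 meRIP counts and the denominator on 29 input counts. *Scr* (log2FC 2.77, adjusted p = 0.0795) and *pb* (5.11, adjusted p = 0.0996) also missed the threshold. With the same-numbered input and meRIP libraries of a genotype taken as 1 RNA preparation and fitted as a block, an alternative chosen after seeing the data, *Ubx* (log2FC 4.76, adjusted p = 0.0212) and *Scr* (2.78, adjusted p = 0.0499) were called. Both were also called by edgeR (adjusted p = 0.0178 for *Ubx* and 0.0213 for *Scr*) and by DESeq2 (4.87e-05 and 0.00155). Over 20 alternatives the adjusted p ranged from 4.87e-05 to 0.204 for *Ubx* and from 0.00155 to 0.316 for *Scr*.

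Between neuroblast-biased and wildtype brains no Hox gene differed in the ratio by the test, and neither did any other gene: limma-voom called 0.0% of 9918 genes in either direction, with 674 genes at an unadjusted p under 0.05, of which 1 was a Hox gene (*Dfd*). Over all genes edgeR called 2 and DESeq2 called 33, and each called 0 of the 8. The ratio of *Antp* was 5.60 in neuroblast-biased and 8.37 in wildtype brains, with a log2FC of -0.63 and a 95% interval from -1.51 to 0.26. The ratio of *Ubx* was 22.8 in neuroblast-biased and 7.74 in wildtype brains, with a log2FC of 2.18 and an interval from -0.98 to 5.34, so that the counts do not fix its direction. The ratio of *abd-A* was 6.70 in neuroblast-biased and 4.81 in wildtype brains (log2FC 0.96, interval -2.13 to 4.04).

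**Figure D4:**
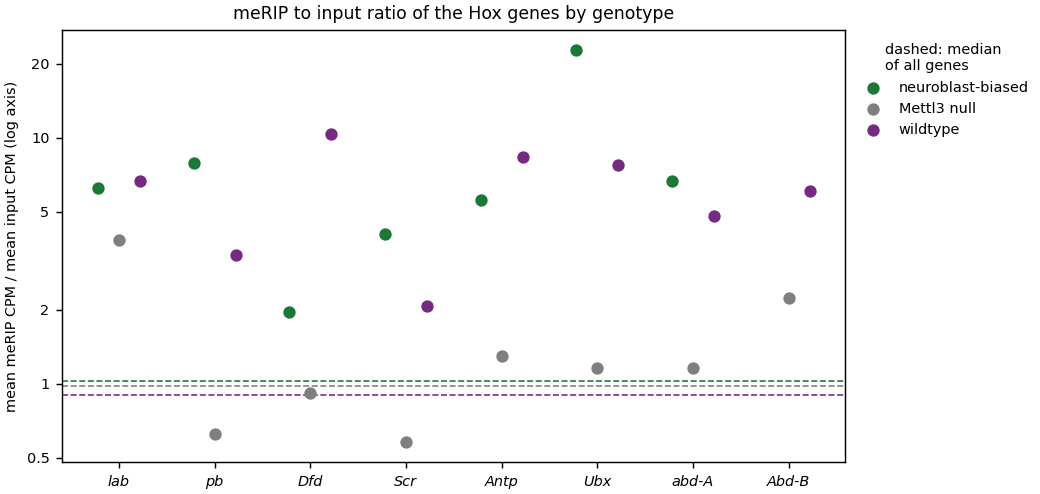
Mean meRIP CPM divided by mean input CPM (log axis) of each Hox gene in neuroblast-biased, Mettl3 null and wildtype brains, with dashed lines for the median of all genes in each genotype. Abd-B has no neuroblast-biased point because its input counts were 0. For Antp the points are 5.60, 1.30 and 8.37, against medians of 1.02, 0.980 and 0.899.

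The cofactors and regulators of Hox genes were measured beside them. *hth*, which encodes a TALE homeodomain cofactor of Hox proteins, was lower in neuroblast-biased input, at 308 and 403 CPM against 670 and 635 CPM in wildtype input (log2FC -0.81, SE 0.14, adjusted p = 0.00116). In meRIP *hth* had 1507 and 1698 CPM in *Mettl3* null brains, against 4338 and 6318 CPM in wildtype brains (log2FC -1.77, SE 0.28, adjusted p = 1.92e-05). The ratio of *hth* to input was also lower in *Mettl3* null than in wildtype brains (log2FC -1.77, adjusted p = 0.0121) and higher in neuroblast-biased brains than in those null for *Mettl3* (log2FC 1.89, adjusted p = 0.0125). *exd*, the other cofactor, was not called in input or in the ratio and was lower in neuroblast-biased meRIP than in that of brains null for *Mettl3* (log2FC -0.64, adjusted p = 0.0185). Of the trunk selectors, *tsh* was called lower in *Mettl3* null than in wildtype meRIP (log2FC -0.9997, adjusted p = 0.000980), while its paralogue *tio* was not. *tio* was lower in neuroblast-biased meRIP, at 23.7 and 31.8 CPM against 62.5 and 55.7 CPM in wildtype meRIP (log2FC -1.10, adjusted p = 0.000213).

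Polycomb and trithorax group proteins hold Hox genes off or on through chromatin. Of 18 tested Polycomb group genes, neuroblast-biased input had 1 called above and 1 called below wildtype input: *Caf1-55*, a histone-binding subunit, was higher (log2FC 0.60, adjusted p = 0.0376) and *Su(z)2* was lower (log2FC -1.05, adjusted p = 0.0122), where 5.28% of all genes were called higher and 8.09% lower. In meRIP 3 of the 18 were lower in *Mettl3* null than in wildtype brains and 0 higher, a share near the 16.6% of all genes called lower. Among them were *ph-p* (log2FC -1.35, adjusted p = 2.81e-05) and *Psc* (-1.11, adjusted p = 0.000300), both subunits of the PRC1 complex. Both were also called in the ratio, at log2FC of -1.20 for *ph-p* and -1.24 for *Psc*. Of 18 trithorax group genes, neuroblast-biased input had 0 called above and 1 called below wildtype input, namely *tna* (log2FC -0.83, adjusted p = 0.00112). *Trl*, which encodes the GAGA factor, had 18.1 and 31.8 CPM in *Mettl3* null meRIP, against 188 and 245 CPM in wildtype meRIP (log2FC -3.31, SE 0.29, adjusted p = 1.92e-09). The group had 4 of 18 genes lower and 2 higher in that comparison, where 16.6% and 6.11% of all genes were called. In the ratio it had 4 lower and 0 higher, where 5.22% and 0.413% of all genes were called, with *trx* at a log2FC of -0.93 (adjusted p = 0.0397). In meRIP of *Mettl3* null against wildtype brains the median log2FC was -0.21 for the Polycomb group and 0.13 for the trithorax group, against 0.05 over all genes tested.

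The listed head and brain patterning genes were not called in input against wildtype. Of 10 tested genes (*oc*, *ems*, *btd*, *tll*, *ey*, *toy*, *Rx*, *hbn*, *slp1* and *slp2*), 0 were called between neuroblast-biased and wildtype input, where 5.28% of all genes were called higher and 8.09% lower, and they summed to between 494 and 594 CPM in neuroblast-biased libraries and between 548 and 566 CPM in wildtype libraries. In meRIP 7 of 10 were lower in *Mettl3* null than in wildtype brains, where 16.6% of all genes were called lower, with a median log2FC of -0.93 against 0.05 over all genes. They included *toy* (log2FC -1.96, adjusted p = 1.36e-07) and *oc* (-1.86, adjusted p = 1.31e-07), both of which encode homeodomain proteins. Between neuroblast-biased and wildtype meRIP 3 of 10 were called higher and 1 lower, where 19.7% and 23.8% of all genes were called. Among those called higher was *ems*, at 76.4 and 109 CPM in neuroblast-biased and 12.5 and 8.51 CPM in wildtype meRIP (log2FC 3.12, adjusted p = 1.60e-09). The 4 listed apoptosis genes (*rpr*, *grim*, *hid* and *skl*) were not called in input or in the ratio in any comparison. In meRIP 3 of 4 were lower in *Mettl3* null than in wildtype brains: *grim* (log2FC -2.34, adjusted p = 2.91e-06), *hid* (-2.16, adjusted p = 5.23e-07) and *rpr* (-1.57, adjusted p = 8.93e-05), where 16.6% of all genes were called lower. *hid* was the 1 gene of the 4 called lower in neuroblast-biased than in wildtype meRIP, a share near the 23.8% of all genes called lower. *hid* had 18.7 and 28.7 CPM in neuroblast-biased meRIP, against 76.3 and 125 CPM in wildtype meRIP (log2FC -2.07, adjusted p = 1.40e-07).

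The members did not share 1 pattern over the libraries. With Pearson's r of log2(CPM + 1) over the 12 libraries, which mixes input with meRIP and the 3 genotypes, *Antp* was most like *NK7.1* (r = 0.994), *cg* (0.992) and *Rga* (0.992), with no other Hox gene above rank 871 of 9917. *Ubx* was most like *gce* (r = 0.977), *dpr6* (0.977) and *CG34347* (0.976). Its nearest Hox gene was *pb* (r = 0.910, rank 246), ahead of *Abd-B* (0.895, rank 334) and *abd-A* (0.874, rank 459). By contrast *abd-A* ranked 14 and *Ubx* ranked 29 among the genes most like *Abd-B* (r = 0.908 and 0.895), whereas *Antp* ranked 1996 (r = 0.571). *pb* ranked its nearest Hox gene, *Ubx*, at 50 (r = 0.910), and its nearest genes of all were *plx*, *babos* and *drl* (0.974, 0.959 and 0.955). The genes most like *abd-A* were *CG44247*, *Sdb* and *Lgr3* (r = 0.966, 0.960 and 0.954), and those most like *Abd-B* were *zfh1*, *fng* and *UBL3* (0.941, 0.930 and 0.925). For *Scr* they were *gogo*, *Sox102F* and *CG43850* (r = 0.945, 0.944 and 0.943), and for *Dfd* they were *CG9171*, *Dh44-R2* and *lncRNA:CR44171* (0.919, 0.905 and 0.866). *lab* was most like *CG10809*, *hng2* and *Cdc42* (r = 0.945, 0.940 and 0.931).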

How the data were processed

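The authors dissected brain lobes, immunoprecipitated RNA with an anti-m6A antibody and made libraries with ribosomal RNA depletion. Their methods describe replicates of each genotype as biological. The deposited values are raw counts per gene, 1 column per library. Trimming with Trimmomatic and mapping to BDGP6 are stated in the labels and methods. The methods name STAR and featureCounts for meRIP and kallisto for input, whereas the labels name kallisto for every library, so the counter is uncertain for both kinds. Strandedness, duplicate removal and versions are not given in the sources used here. Input and meRIP counts may differ in how shared or repeated sequence was assigned, which touches the ratio.

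Counts were tested with limma-voom (limma 3.58.1, edgeR 4.0.16, R 4.3.3) after filterByExpr with a minimum count of 10 and TMM scaling, over the 6 input, the 6 meRIP or all 12 libraries, with Benjamini-Hochberg adjustment over all genes tested and calls at an adjusted p under 0.05. The ratio is the interaction of library kind and genotype. The scripts were tested on simulated data. The alternatives tried were DESeq2 1.42.0, the quasi-likelihood test of edgeR, RLE factors, library size alone, no filter, the compared genotypes alone, a replicate block, the RNA preparation as a block (the study divided the brain RNA of each genotype between input and meRIP, and that equal numbers mark 1 preparation is an assumption) and leaving out each library. Gene positions and exon lengths came from the Ensembl annotation of BDGP6.54 (17710 of 17807 genes matched), and sequences from the RefSeq assembly of the same release. The Hox genes and all gene lists were chosen with earlier results of these data known. The text names all 8 Hox genes, the 3 genes most like each by Pearson's r, and, with values, members of each list that passed the test in the comparison described. Genes or values given beyond this were chosen after their values were seen. A comparison of sequence between members is not reported here.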

Additional observations from a re-analysis of the deposited data

Results flagged for a closer look

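Within the Hox family 3 results were marked because an effect differed between genotypes by a test of the difference itself, the interaction of library kind and genotype. The difference between meRIP and input was smaller in *Mettl3* null than in wildtype brains for *Antp* (log2FC -2.65) and for *Ubx* (log2FC -2.73), and it was larger in neuroblast-biased brains than in those null for *Mettl3* for *Antp* (log2FC 2.02). With 2 libraries in each group, no library could be tested as an outlier.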

How the results depend on the processing

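Over the 59 fold changes reported for *pb*, *Dfd*, *Scr*, *Antp*, *Ubx*, *abd-A* and *Abd-B*, 900 values under alternatives gave the same side of the threshold and direction in 807, and 8 of 19 calls held throughout. No called value changed sign. The number of Hox genes called was 4 with DESeq2 in neuroblast-biased against wildtype input. Against *Mettl3* null input it was 1 with edgeR and 3 with DESeq2, and 0 to 1 when a library was left out. In meRIP it was 2 to 7 for neuroblast-biased against wildtype when a library was left out. For neuroblast-biased against *Mettl3* null meRIP it was 2 with no filter, and 2 to 4 when a library was left out. In the ratio it was 1 with edgeR and 0 to 3 when a library was left out for *Mettl3* null against wildtype. For neuroblast-biased against *Mettl3* null it was 3 with edgeR, 3 with DESeq2, 0 with the compared genotypes alone and 0 to 4 when a library was left out.

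With the replicate number as a block, that last count was 2, and with the combination of genotype and replicate number (RNA preparation) as a replicate block, an alternative chosen after seeing the data, it was 3. The replicate block changed no other count by over 1.5 times. Deviations of same-numbered libraries of different groups correlated between -0.041 and 0.0921, so the numbers were not taken as pairs.

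*Ubx* in neuroblast-biased against *Mettl3* null meRIP changed sign to -0.0456 with RLE factors, -0.52 with library size alone, -0.0887 with no filter, -0.0834 with the compared genotypes alone and -0.0052 with the replicate block, and ranged from -0.37 to 0.42 when a library was left out. *Abd-B* in *Mettl3* null against wildtype meRIP changed to 0.0376 with library size alone. When a library was left out, values that crossed 0 ranged from -1.66 to 0.19 for this gene and from -1.67 to 0.19 for *Abd-B* in neuroblast-biased against *Mettl3* null meRIP, and from -0.62 to 0.23 for *Antp* in neuroblast-biased against wildtype meRIP. In input they ranged from -0.27 to 0.75 for *Scr* and from -0.41 to 1.15 for *pb* in *Mettl3* null against wildtype, and from -0.996 to 0.00587 for *Dfd* in neuroblast-biased against *Mettl3* null. In the ratio of neuroblast-biased against wildtype they ranged from -0.37 to 5.39 for *pb* and from -0.17 to 1.93 for *abd-A*. The cause was not tested. Library size alone turned the calls over all genes for neuroblast-biased against *Mettl3* null meRIP to 800 higher and 3167 lower, and of the ratio to 201 higher and 74 lower, and in the ratio of *Mettl3* null against wildtype to 238 higher and 273 lower. Low input counts limit what can be said of *lab*, *Dfd*, *Abd-B* and, in neuroblast-biased brains, of *Ubx* and *abd-A*.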

Other observations

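Many genes that lie between the Hox genes had few or no counts. Of 39 other genes in the span from *lab* to *Antp*, 14 had 0 counts in all 12 libraries, and 11 were tested in the fit over all libraries. The other homeobox genes of that complex, *zen*, *zen2*, *bcd* and *ftz*, had 0 counts in every input library. Of 12 other genes between *Ubx* and *Abd-B*, 6 had 0 counts in all libraries and 9 had at most 3 counts in every library. Among the genes with counts was *lncRNA:CR33938* (FBgn0063127, 3R from 6699560 to 6700164), between *lab* and *pb*. It had 1617 and 2030 CPM in input of neuroblast-biased brains, against 568 and 630 CPM in input of wildtype brains (log2FC 1.64, SE 0.14, adjusted p = 2.39e-06) and against 538 and 481 CPM in *Mettl3* null input (log2FC 1.92, SE 0.12, adjusted p = 1.26e-07).

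The transcript *lncRNA:CR42651*, which encloses the hairpin of *mir-10* between *Dfd* and *Scr*, was followed in meRIP only. Its input level was at most 15.2 CPM and is not compared here, so its meRIP values are not set against the amount of transcript. It had 37.6 and 55.5 CPM in neuroblast-biased meRIP, 6.59 and 3.40 CPM in *Mettl3* null meRIP and 25.2 and 17.1 CPM in wildtype meRIP. It was lower in *Mettl3* null than in wildtype meRIP (log2FC -2.05, SE 0.40, adjusted p = 0.000250) and higher in neuroblast-biased meRIP than in that of brains null for *Mettl3* (log2FC 3.17, SE 0.38, adjusted p = 1.95e-07). In the ratio to input, 0 of the 11 other genes tested in the span from *lab* to *Antp* were called in any comparison.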
